A study of Thlaspi arvense with 10 samples.

Results

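The 5 libraries of wild-type (WT) pennycress embryos did not form 1 uniform group, and 320 gene models divided them by at least 2 times. They were chosen by CPM, the count of a model scaled to the total of its library. A member had a mean of at least 10 CPM over the WT libraries, and either its lower value in WT replicates 1 and 3 was at least 2 times its highest value in WT replicates 2, 4 and 5, or the reverse held. Of 27148 models, 9940 reached the mean level, and 320 of those were members (3.22%). In 318 members WT replicates 1 and 3 were the higher libraries, and in 2 members WT replicates 2, 4 and 5 were. Gaps under 2 times divided the same libraries in many more models, which are counted further below. Because the WT values chose the members, the division within WT is described here without a test.

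Pennycress (Thlaspi arvense) is an oilseed of the cabbage family, and poly(A) RNA came from embryos of its cultivar Spring32, dissected about 15 days after flowering. They were then cultured for 10 days in liquid medium with 120 mM glucose, 35 mM glutamine, 10 mM alanine and 20% polyethylene glycol, an osmoticum, at 20 °C under continuous light, with 15 embryos to a flask. The groups were 5 WT libraries and 5 libraries of WD3, 1 line that overexpresses WRI1 and DGAT1, and both were grown and harvested by the same description. The promoters of the transgenes are not given in the labels, and neither is the flask, plant or harvest day behind each library. Library totals ran from 55525341 to 89432933 counts, and 18153 to 18932 models had a count above 0 in a library. The identifiers are not paired with gene names here, so neither the function of the members nor marker genes of embryo, endosperm or seed coat could be looked up, and the levels of WRI1 and DGAT1 are not reported.

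In seeds the transcription factor WRI1 switches on the genes that turn sugar into fatty acids, and the enzyme DGAT1 completes triacylglycerol, the oil that is stored, by adding an acyl chain to diacylglycerol. Such embryos fill with oil and storage protein, so a few transcripts dominate their RNA and the share left for all others depends on them. A gene model is a transcribed locus as assembled from aligned reads. In libraries made from whole embryos, fewer cells of a type and less RNA per cell cannot be told apart.

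The 318 members higher in WT replicates 1 and 3 were of ordinary abundance. Their mean WT level had a median of 28.4 CPM and ran from 10.0 to 1424 CPM, where all 9940 models of at least 10 CPM had a median of 30.4 CPM. Of the 318, 206 had a mean of at least 20 CPM, 81 of at least 50 CPM and 35 of at least 100 CPM. Among the 100 most abundant models in WT 3 were such members, and among the first 1000 there were 24, where 3.20% of the 9940 models were. Every member was numbered with the prefix MSTRG, as were all 9940 models that reached the mean level. The lowest count of any of the 318 in any library was 144, so none of these values rests on a handful of counts, though 1 fragment may be worth several.

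The median member stood at 49.8 CPM in WT replicate 1 and 51.2 CPM in WT replicate 3. It stood at 15.5 CPM in WT replicate 2, 14.2 CPM in WT replicate 4 and 10.4 CPM in WT replicate 5. In the line the median was 66.2, 68.8, 65.9, 70.2 and 70.0 CPM in replicates 1 to 5. The line thus lay on the side of WT replicates 1 and 3, and its 5 libraries differed little from each other. The median over all 9940 models was between 29.7 and 30.8 CPM in the WT libraries and between 36.5 and 37.6 CPM in those of the line. Within WT it was lowest in replicates 1 and 3, at 29.99 and 29.7 CPM, against 30.1 to 30.8 CPM in the others. With TMM scaling, which corrects library totals for the pull of a few dominant transcripts, these 2 were instead the highest in WT, at 33.4 and 34.0 CPM against 30.5 to 31.3 CPM.

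**Figure D1:**
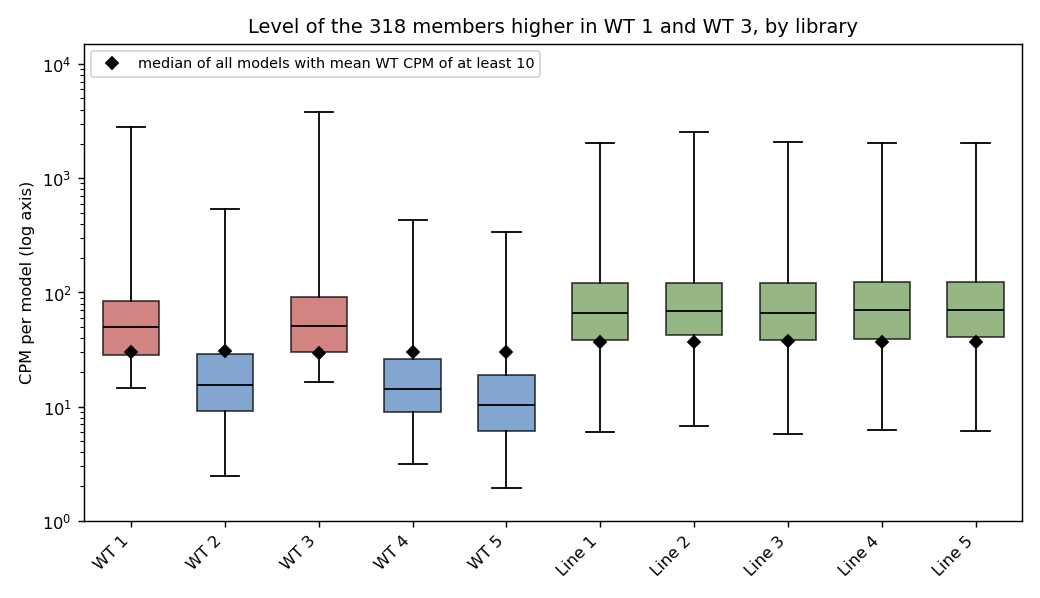
Level of the 318 members higher in WT replicates 1 and 3, as CPM on a log axis, in each of the 10 libraries. Boxes span the quartiles with the median as a line, whiskers reach the lowest and highest member, and diamonds give the median of all models with a mean WT level of at least 10 CPM. The boxes of WT 1 and WT 3 (red) have medians of 49.8 and 51.2 CPM, those of WT 2, WT 4 and WT 5 (blue) of 10.4 to 15.5 CPM, and those of the line (green) of 65.9 to 70.2 CPM.

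Summed over the 318 members, the share of all counts showed the same order of the WT libraries, while the order within the line differed. It was 3.18% in WT replicate 1 and 3.44% in WT replicate 3. It was 1.05% in WT replicate 2, 0.950% in WT replicate 4 and 0.663% in WT replicate 5. The line held between 4.08% and 4.32% in its 5 libraries, above all 5 WT libraries. The 10 most abundant models took 12.8% to 15.5% of the counts in the line and 28.0% to 29.5% in WT. A larger share was thus left for all other models in the line. With TMM scaling the median member stood at 60.7 to 65.9 CPM in the line, and at 55.5 and 58.7 CPM in WT replicates 1 and 3. The 2 members of the opposite direction together held less than 0.01% of the counts in each library, at most 0.00722%, in replicate 3 of the line.

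WT replicates 1 and 3 were close to each other in these models. The median ratio of replicate 1 to replicate 3 was 0.945, and in 317 of the 318 members they were within 1.5 times of each other. Replicate 3 was the highest WT library in 232 members and replicate 1 in the other 86.

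The 3 lower WT libraries were not alike, although the rule asks only that all of them be low. WT replicate 5 was the lowest WT library in 308 of the 318 members, replicate 4 in 8 and replicate 2 in 2. The rule leaves only these 3 libraries to be lowest in a member. Over all 9940 models replicate 5 was the lowest in 22.7%, replicate 4 in 7.17% and replicate 2 in 2.15%. In the rest of those models replicate 1 or 3 was the lowest, so the shares are not like for like. The order replicate 2, then 4, then 5 was found in 230 members, and replicate 4, then 2, then 5 in 78. The median ratio of replicate 2 to replicate 5 was 1.55 and that of replicate 4 to replicate 5 was 1.43, while replicates 2 and 4 differed by a median ratio of 1.09. In 193 members replicate 2 stood at least 1.5 times above replicate 5. In the median member, WT replicate 2 stood at 0.349 times replicate 3, and replicate 3 at 4.49 times replicate 5. The libraries were in these models therefore at 3 levels, with replicates 1 and 3 high, 2 and 4 lower, and 5 lowest.

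**Figure D2:**
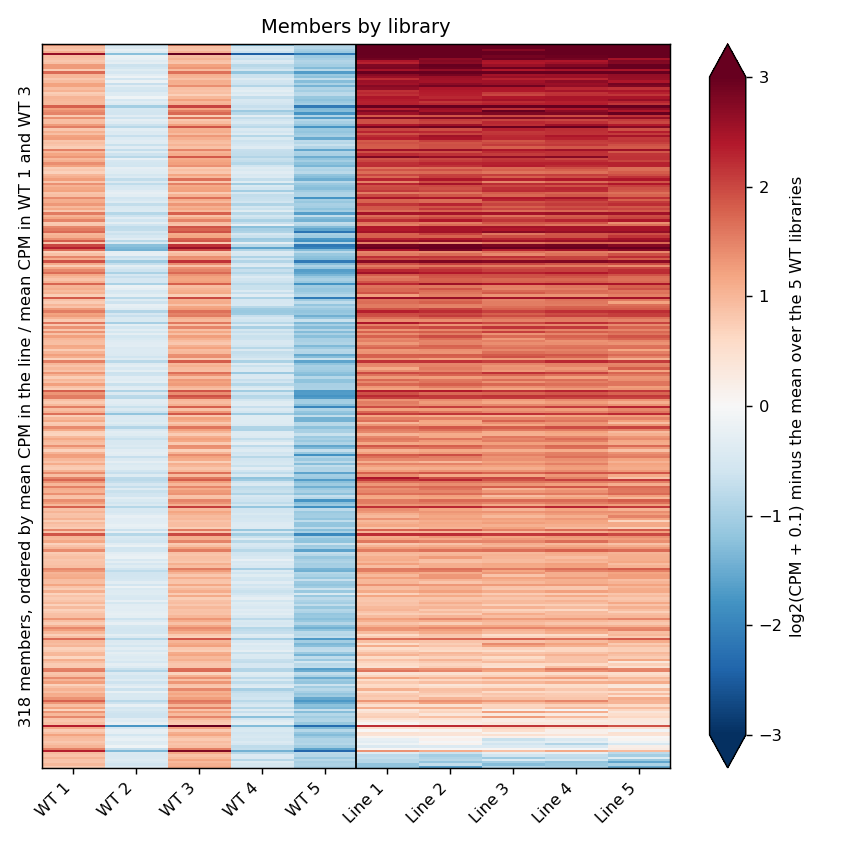
The 318 members (rows) in the 10 libraries (columns), coloured by log2(CPM + 0.1) minus the mean of the same quantity over the 5 WT libraries, with colours saturating at 3 log2 units in either direction. Rows are ordered by the ratio of the mean CPM in the line to the mean CPM in WT replicates 1 and 3. WT 5 is the bluest WT column in nearly all rows (lowest in 308 of 318), and the 5 columns of the line look alike within a row.

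The size of the gap, the lowest CPM of the higher libraries divided by the highest of the lower ones, had a median of 2.62 and reached 14.9. It was at least 3 in 112 members, at least 4 in 53, at least 5 in 27 and at least 10 in 4. The ratio of the mean of WT replicates 1 and 3 to the mean of the other WT libraries had a median of 3.24, against 0.892 over all 9940 models. At the limit of 2, the last member inside had a gap of 2.003, with 266 and 282 CPM in WT replicates 1 and 3, and 133, 123 and 92.1 CPM in replicates 2, 4 and 5. The first model outside had a gap of 1.998, with 236 and 264 CPM in the higher libraries and 118, 109 and 83.0 CPM in the lower. These neighbours show the same order of libraries on both sides of the limit, so the number 318 marks a point on a continuous range. In the opposite direction the first model outside had a gap of 1.95, close to the limit, while the members inside had 2.51 and 3.70.

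The imbalance of 318 to 2 was one of large gaps. Counting any gap above 1, WT replicates 1 and 3 were both above the other WT libraries in 1777 of the 9940 models (17.9%) and both below in 5171 (52.0%). With TMM scaling these numbers were 2896 (28.4%) and 2656 (26.0%) of 10204 models of at least 10 CPM, so this majority turned. The TMM factors were 0.897 and 0.872 for WT replicates 1 and 3 and 0.963 to 0.988 for the other WT libraries, and they widen the division of the members. All 318 members were also found by the rule with TMM scaling, which gave 436 members in this direction.

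The member with the largest gap was MSTRG.8639. It had 225 CPM in WT replicate 1 and 333 CPM in replicate 3. It had 15.2, 6.66 and 8.43 CPM in WT replicates 2, 4 and 5. In the line it had 1694, 2549, 697, 783 and 1442 CPM in replicates 1 to 5, above every WT library. Its mean was 1433 ± 754 CPM in the line and 118 ± 152 CPM in WT (SD, n = 5 each), with a log2 change of 3.35 (SE 1.12, edgeR quasi-likelihood test, adjusted p = 0.0218). It was also the most variable of the 318 among the libraries of the line, where replicate 2 stood highest and replicate 3 lowest.

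The second, MSTRG.15873, was a steadier case. It had 50.6 and 59.9 CPM in WT replicates 1 and 3, and 3.83, 3.24 and 2.43 CPM in replicates 2, 4 and 5. In the line it lay between 82.9 and 101 CPM, with a mean of 92.9 ± 7.35 CPM (SD, n = 5), above every WT library. The WT mean was 24.0 ± 28.7 CPM (SD, n = 5), an SD larger than the mean, and the log2 change of 1.70 (SE 0.87) did not pass the test (edgeR adjusted p = 0.110). Without WT replicate 3 it did (log2 change 2.45, edgeR adjusted p = 0.0330).

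The member with the highest mean WT level held its place through WT replicates 1 and 3 alone. It had 2795 and 3788 CPM there and 221, 208 and 108 CPM in WT replicates 2, 4 and 5. In the line it had 1418, 1199.8, 1014, 1224 and 1075 CPM, all in the gap between the WT libraries. Its log2 change was -0.52 (SE 0.88, edgeR adjusted p = 0.624), so a model whose WT libraries spanned more than an order of magnitude gave no call.

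The second in level had 2053 and 2005 CPM in WT replicates 1 and 3 and 516, 415 and 275 CPM in the others. The line had 1922 CPM in replicate 1 and 2051 to 2090.3 CPM in the other 4, a level in and around that of WT replicates 1 and 3. The line's mean was 1.004 times the mean of those 2 WT libraries and 5.07 times that of the other 3. With TMM scaling the line would lie lower against WT replicates 1 and 3. The TMM factors of the line were 1.04 to 1.09, above the 0.897 and 0.872 of those 2.

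The members ranked 3 to 5 in level differed from most. The member of rank 3 had 1192 and 1079 CPM in WT replicates 1 and 3, 538, 428 and 338 CPM in the others and 396 to 686 CPM in the line. The member of rank 4 had 1016 and 998 CPM, then 364, 375 and 234 CPM, and 237 to 388 CPM in the line. The member of rank 5 had 699.8 and 900.3 CPM, then 316, 289.9 and 207 CPM, and 134 to 221 CPM in the line. In the members of ranks 3 and 4 the line lay at or near the level of WT replicates 2, 4 and 5. In that of rank 5 it lay lower still, with a mean of 178 CPM against 271 CPM in those libraries. In none of the 3 members was a library of the line as high as WT replicates 1 and 3. Those of ranks 4 and 5 fell in the line, with log2 changes of -1.22 (SE 0.41, edgeR adjusted p = 0.0240) and -1.67 (SE 0.41, edgeR adjusted p = 0.00423), and that of rank 3, at -0.58 (SE 0.37), did not pass (edgeR adjusted p = 0.187).

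**Figure D3:**
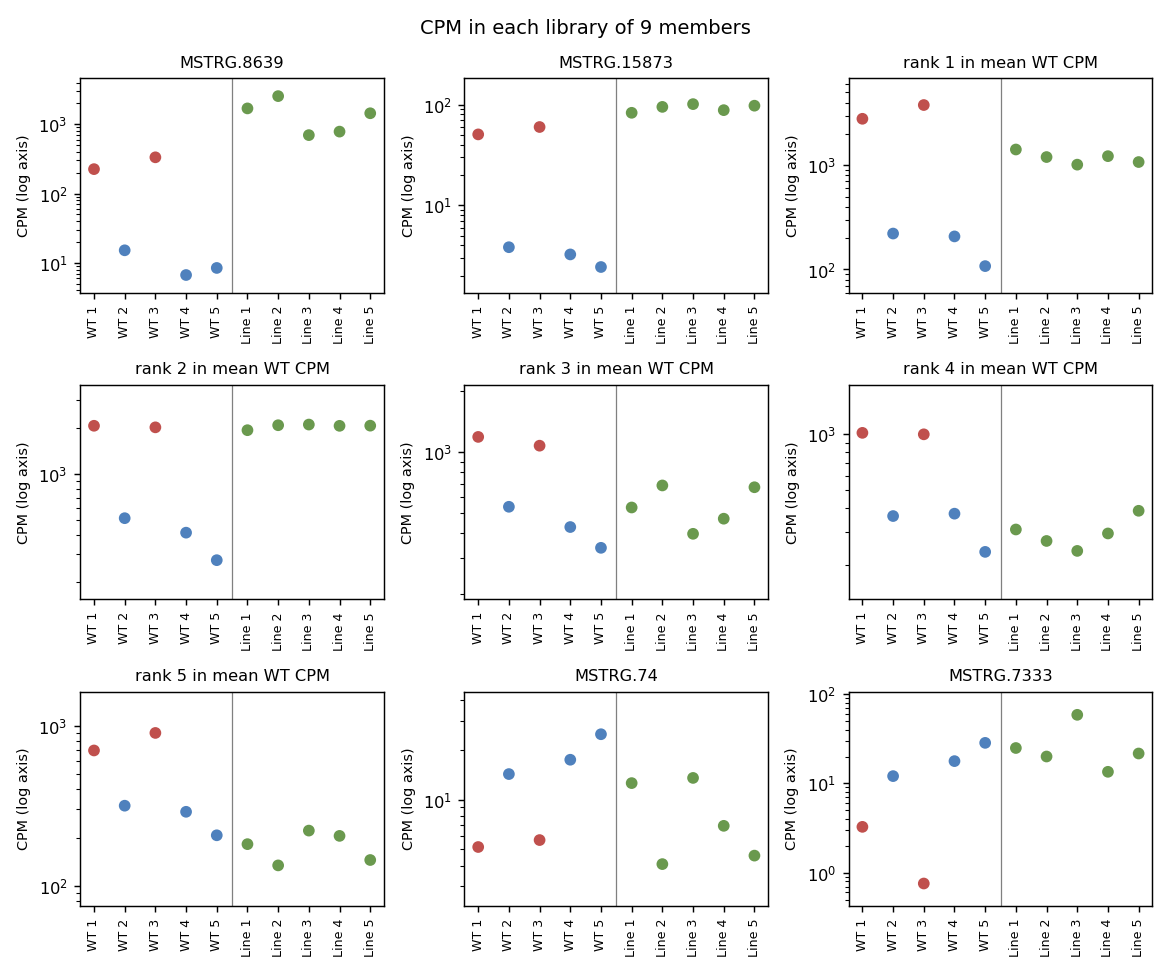
CPM on a log axis in each library for 9 members: MSTRG.8639 and MSTRG.15873 with the largest gaps, the 5 with the highest mean WT level, and MSTRG.74 and MSTRG.7333 of the opposite direction. Red points are WT 1 and WT 3, blue points WT 2, WT 4 and WT 5, and green points the line, and each panel has its own range. The line is above all WT libraries in MSTRG.8639 and MSTRG.15873, between them in the member of rank 1 and around or below the lowest WT library in that of rank 5.

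The position of the line was not used by the rule. In 308 of the 318 members (96.9%) all 5 libraries of the line were above WT replicates 2, 4 and 5, where 40.9% of all 9940 models were. The WT side of this count is fixed by the rule, which takes models in which those libraries are low. With TMM scaling the number was 307, and over the 9940 models it was 34.7%. The mean of the line was 4.69 times the mean of WT replicates 2, 4 and 5 in the median member, from 0.655 to 142 times, against a median of 1.06 over all 9940 models. In 305 members (95.9%) the line was nearer on the log2 scale to WT replicates 1 and 3 than to the other WT libraries, and in 13 it was nearer to the others. Over the 9940 models the share nearer to WT replicates 1 and 3 was 54.7%.

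Against WT replicates 1 and 3, the position depended on the scaling. By library totals, all 5 libraries of the line were above both in 222 members (69.8%, and 36.0% of the 9940 models had the line above all WT libraries), below both in 43 (13.5%) and overlapping or between them in 53. Over the 9940 models, 49.8% had the line above WT replicates 1 and 3 and 21.5% had it below. With TMM scaling the numbers among the members were 138 above (43.4%), 79 below (24.8%) and 101 overlapping or between, and over the 9940 models 31.4% were above and 40.1% below. The median ratio of the line to the mean of WT replicates 1 and 3 was 1.33 by library totals (1.15 over the 9940 models) and 1.10 with TMM scaling (0.955 over the 9940 models). Differences between the shares of members and of all models were not tested.

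**Figure D4:**
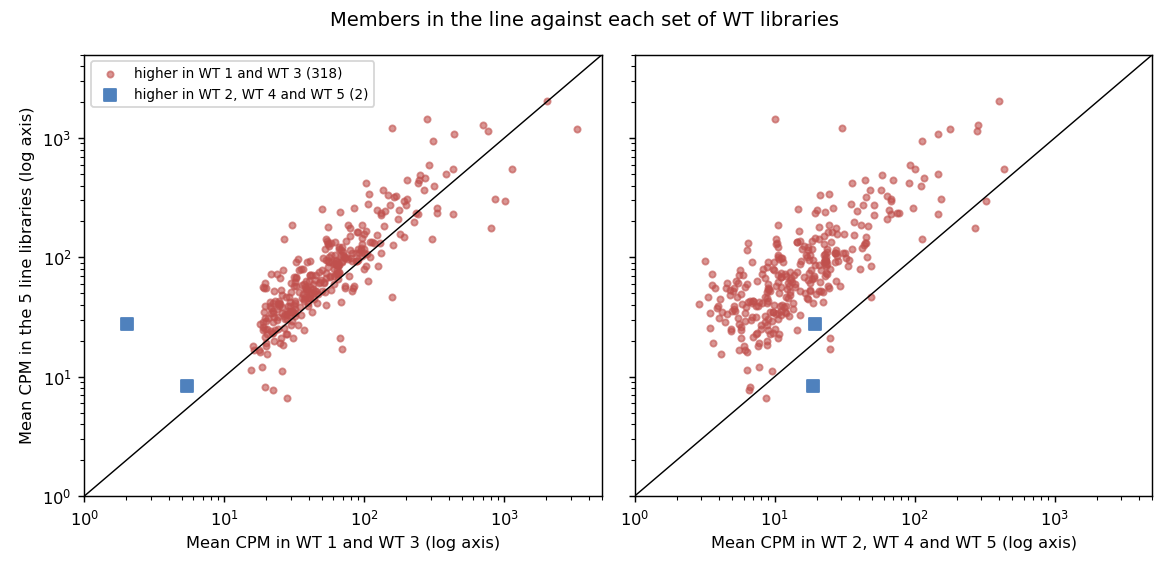
Mean CPM of each member in the 5 libraries of the line (vertical) against its mean in WT 1 and WT 3 (left) and in WT 2, WT 4 and WT 5 (right), both on log axes, with the line of equality. Red circles are the 318 members higher in WT 1 and WT 3 and blue squares the 2 of the opposite direction. Circles lie along and mostly above equality on the left (median ratio 1.33) and well above it on the right (median ratio 4.69).

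Sorted by where the line lay among all WT libraries, by library totals, the 318 members fell into 4 kinds. The line was above all of them in 222 members, inside the gap in 33, within the range of the WT libraries in another way in 15, and spread over several of these positions in 48. In none was the line below all WT libraries, where 18.3% of the 9940 models were. The WT side of this count is also fixed by the rule, which takes models with some WT libraries low. The choice of members thus makes this position rarer, and the contrast is given as a description. The members with the line in the gap had a median mean WT level of 43.8 CPM, and those with the line above all WT libraries 27.5 CPM. The gap itself was alike in both kinds, with medians of 2.57 and 2.70.

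The line was below WT replicates 1 and 3 in members of every level. By library totals that was so in 10 of the 35 members with a mean WT level of at least 100 CPM, in 8 of 46 from 50 to 100 CPM, in 12 of 125 from 20 to 50 CPM and in 13 of 112 from 10 to 20 CPM. With TMM scaling the numbers were 14, 16, 23 and 26 of the same members. Over all 9940 models the line was below both in 21.5% by library totals and in 40.1% with TMM scaling. The levels were set after the values were seen, and the shares were not tested against each other. By gap, the line was below WT replicates 1 and 3 in 23 of 139 members with a gap under 2.5, in 6 of 67 from 2.5 to 3, in 9 of 59 from 3 to 4 and in 5 of 53 with a gap of at least 4. With TMM scaling these numbers were 41, 15, 15 and 8. In each of the 53 members with a gap of at least 4 the line was above WT replicates 2, 4 and 5.

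**Figure D5:**
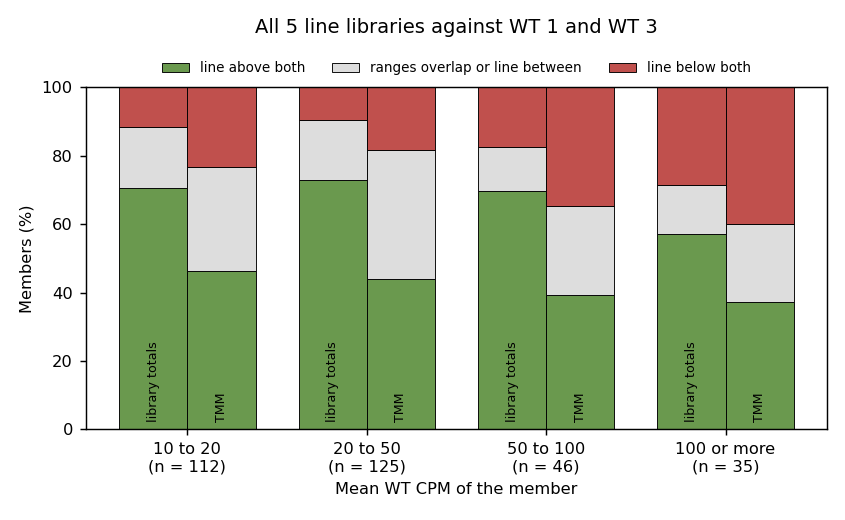
Share of members (%) whose 5 line libraries were all above WT 1 and WT 3 (green), all below them (red) or overlapping or between them (grey), by the mean WT level of the member, with library totals (left bar of each pair) and TMM scaling (right bar). The red part is largest in the 35 members of at least 100 CPM, with 10 members by library totals and 14 with TMM scaling. Over all 9940 models the line was below both in 21.5% by library totals and in 40.1% with TMM scaling. The green part shrinks with TMM scaling at every level.

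In the test of the line against all 5 WT libraries, 133 of the 318 members rose, 6 fell and 179 did not pass (edgeR quasi-likelihood test, adjusted p under 0.05 over 17471 models, TMM scaling). Over all tested models 29.6% rose and 33.4% fell, and among the 9940 models 30.6% rose and 37.9% fell. In all, 43.7% of the members were called, where 63.0% of all tested models were, and 41.8% of the members rose. The WT side of this comparison chose the members, and its spread is theirs by construction. The median standard error of the log2 change was 0.42 in the members and 0.08 over the 9940 models. The median log2 change of the members was 1.01, against -0.04 over all tested models. At least 2-fold rises were called in 124 members, 39.0% where 12.3% of all tested models were. Falls of that size were called in all 6 that fell, 1.89% where 10.2% of all tested models were. Among the 9940 models, which reach the same mean level as the members, 825 had such rises and 594 such falls.

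Fitted against WT replicates 1 and 3 alone, 151 of the 318 members were higher and 61 lower in the line (background 29.5% and 26.4%). Against WT replicates 2, 4 and 5 alone, 307 were higher and 4 lower (background 33.0% and 32.5%). These backgrounds are over all models tested in each fit. Among the 9940 models of at least 10 CPM, 3164 were higher and 3229 lower in the first fit, and 3581 and 3803 in the second. The rule set how far those WT libraries lie apart, so the contrast of these numbers is given as a description.

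The number of calls rested on single WT libraries. Without WT replicate 1 the members that rose numbered 222 and without WT replicate 3 they numbered 250. Without any other single library there were 96 to 125. All 133 members that rose had the line above every WT library, and 89 others with the line above every WT library did not pass. Of the 6 that fell, 5 had the line spread over several positions and 1 had it within the WT range.

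The largest rise was that of the member of rank 44 in WT level. It had 147 and 170.4 CPM in WT replicates 1 and 3, 35.5, 23.0 and 31.8 CPM in the others, and 2039, 1012, 1199, 1227 and 615 CPM in the line. Its libraries in the line were all at least 3 times any WT library, with a log2 change of 3.67 (SE 0.66, edgeR adjusted p = 0.000565). The member of rank 221 had 31.0 and 30.4 CPM in WT replicates 1 and 3, a mean of 10.6 CPM over the other 3, and 137 to 249.8 CPM in the line (log2 change 3.12, SE 0.42, edgeR adjusted p = 6.5e-05). The line was at least 2 times the mean of WT replicates 1 and 3 in 49 members and at least 4 times in 6, and 2 times or more below it in 13. The largest fall was that of the member of rank 5, given above.

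The members did not divide the line. Their SD of log2(CPM + 0.1) over the 5 libraries of the line had a median of 0.10, against 0.11 over the 9940 models, while over the WT libraries the medians were 0.98 and 0.17, the first of these set by the rule. The highest library of the line was at least 1.5 times the lowest in 22 members (6.92%, against 7.77% of the 9940 models) and at least 2 times in 3 (0.943%, against 1.66%). Those 3 were MSTRG.8639, the member of rank 44 and the member of rank 271, which had 50.2, 36.6, 37.5, 26.6 and 17.1 CPM in replicates 1 to 5. The steadiest was the member of rank 142, with 51.9 to 52.8 CPM in the line and 50.1, 21.1, 49.2, 24.6 and 17.1 CPM in WT replicates 1 to 5.

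Differences within the line were only weakly related to the division. Across the 320 members, the difference between the mean log2 levels of the 2 sets of WT libraries correlated with the deviation of a line library from the mean of the line with r of 0.33 for replicate 2 and -0.38 for replicate 3, and with r of 0.03, 0.11 and 0.03 for replicates 1, 4 and 5. These values rested on MSTRG.8639 and the 2 members of the opposite direction, MSTRG.7333 and MSTRG.74. Over the 318 members alone, r was 0.20 for replicate 2 and -0.13 for replicate 3, and without MSTRG.8639 as well, over 317 members, it was 0.07 and -0.03. For replicates 1, 4 and 5 it was then 0.12, -0.01 and -0.10. Both sets of values were added after the first had been seen. The points share the same libraries and are not independent, so the values are a description.

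The 2 members of the opposite direction were weakly expressed. MSTRG.7333 had 3.26 and 0.756 CPM in WT replicates 1 and 3, and 12.1, 17.8 and 28.5 CPM in replicates 2, 4 and 5. In the line it had 24.9, 20.0, 58.7, 13.5 and 21.6 CPM, at or above the level of WT replicates 2, 4 and 5, with replicate 3 far above the rest. Its log2 change was 1.02 (SE 0.72, edgeR adjusted p = 0.234). MSTRG.74 had 5.18 and 5.70 CPM in WT replicates 1 and 3, and 14.3, 17.5 and 24.9 CPM in replicates 2, 4 and 5. In the line it had 12.6, 4.08, 13.5, 6.95 and 4.59 CPM. Replicates 1, 3 and 4 of the line lay in the gap between the WT libraries, and replicates 2 and 5 below every WT library. Its log2 change was -0.84 (SE 0.46, edgeR adjusted p = 0.134). In both, WT replicate 5 was the highest WT library, while it was the lowest in most of the other 318, and replicate 3 was the highest library of the line.

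Consecutive identifiers were few among the members. The 318 held 10 pairs of consecutive numbers and no longer run. Of 385 models of at least 10 CPM that were numbered next to a member, 20 were members themselves (5.19%), against 3.20% of all 9940. Positions on the genome were not used here, so it is not known whether such pairs are neighbours or parts of 1 transcript.

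Library totals, detected models and the share of the 10 most abundant models overlapped between the 2 sets of WT libraries, while the share of the 100 most abundant models, the share of models with a locus tag and the TMM factors did not. WT replicates 1 and 3 had totals of 74198665 and 68756445 counts, and replicates 2, 4 and 5 had 68760277, 89432933 and 74854640, so the ranges overlapped. Detected models numbered 18695 and 18174 in the first 2 and 18576, 18882 and 18932 in the others, also overlapping. The 10 most abundant models took 29.3% and 29.5% of the counts in replicates 1 and 3, and 28.0%, 29.3% and 28.4% in the others. The 100 most abundant took 42.7% and 43.3% in replicates 1 and 3, above the 41.2%, 42.5% and 41.7% of the others. Models with a locus tag took 0.0922% and 0.0831% in replicates 1 and 3, and 0.102%, 0.104% and 0.118% in the others. The part of these shares and of the TMM factors in the division was not tested.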

How the data were processed

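The authors deposited raw counts per gene model for 10 poly(A) RNA libraries, 5 WT and 5 of the line, not normalized. The submitters' processing notes name HISAT2 2.2.1 and StringTie 2.2.1. Not given in the sources used here are the build, the annotation, how reads were counted and whether strand was used. First strands were made from random hexamers, per the labels' protocols. If strand was not used, a model can hold reads of an overlapping or antisense one. Of the deposited values between 1 and 12, 26.9% to 37.7% per library were multiples of 4 (25% by an even spread), so 1 fragment may be worth several counts. Groups and replicate numbers come from the sample titles, columns from the library names. Whether replicates came from separate flasks or plants is not stated, so p-values speak of the spread among these 10 libraries only, which may be technical. None of 20 pairs of libraries within a group agreed within sampling noise (lowest chi-square per degree of freedom 5.05, on counts divided by 4).

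CPM used library totals, and log2 values a pseudocount of 0.1 CPM. The line was tested against WT with edgeR 4.0.16 (R 4.3.3): filterByExpr, TMM factors, quasi-likelihood F-test, group as the single term, Benjamini-Hochberg adjustment over 17471 models, all 320 members among them. The standard error of a log2 change is its size over the square root of F. The test and the member rule were tested on simulated data before use. Alternatives used DESeq2 1.42.0, limma 3.58.1 (voom with quality weights), other scalings and filters, a replicate block, and libraries left out. The labels do not say that replicate numbers pair the groups.

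Members and tests were chosen with earlier results of these data known. Named by identifier are the 2 members with the largest gap in each direction among those with at least 20 counts in every higher WT library. Others are given by rank in mean WT CPM: the first 5, those next to the limit, the largest rise and fall, and some chosen after their values were seen (ranks 142, 221 and 271). Marker lists were fixed, but no identifier could be matched to them.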

Additional observations from a re-analysis of the deposited data

Results flagged for a closer look

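Of 30 checks for a single library standing apart within a group of 5, 2 found one. No rate by chance is given, since the checks share libraries. The rule also divided the WT values of the members, which leaves little room for a single WT library to stand apart. MSTRG.7333, higher in WT replicates 2, 4 and 5, stood at 58.65 CPM in replicate 3 of the line and at 13.5 to 24.9 CPM in the other 4. The member of rank 2 in mean WT level stood at 1922 CPM in replicate 1 of the line, below the 2051 to 2090.3 CPM of the other 4.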

How the results depend on the processing

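The 318 members higher in WT replicates 1 and 3 became 206 with a mean of at least 20 CPM, 112 with a gap of 3 and 656 with a gap of 1.5, and 309 to 448 when a WT library was left out of the rule. The 2 of the opposite direction became 7 with a mean of at least 5 CPM, 0 with at least 20 CPM, 22 with a gap of 1.5, 1 with a gap of 3, 6 with library totals that leave out the 100 most abundant models, and 1 to 27 without 1 WT library. The excess of the first direction thus held under all these settings.

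Where the line lay depended on the scaling. With TMM scaling the line was above all WT libraries in 138 members, below all in 1, in the gap in 68, otherwise within the WT range in 29, over several positions in 82, and below WT replicates 1 and 3 in 79. With totals without the 100 most abundant models these were 134, 4, 74, 31, 75 and 86. The line above WT replicates 2, 4 and 5 was found in 306 to 308 members under all 3 scalings.

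Rising members numbered 133 in the main test, 223 with library totals alone and 291 with limma-voom and quality weights, which gave WT replicates 1 and 3 low weights of 0.553 and 0.539. They numbered 307 against WT replicates 2, 4 and 5 alone, where falling members numbered 4. Against WT replicates 1 and 3 alone, 151 rose and 61 fell. The rule chose on these same libraries, so these numbers are no independent support. Leaving out 1 library gave 96 to 250 rising and 4 to 10 falling members. With the replicate block, 203 rose and 3 fell. Same-numbered libraries correlated with r of -0.12, -0.04, -0.16, 0.02 and -0.12, and 0 of 5 WT libraries correlated best with its own number. WT replicates 2, 4 and 5 all correlated best with replicate 3 of the line. With WT libraries alike in this way, the check cannot decide whether the numbers pair the groups. For MSTRG.74 the direction turned against WT replicates 1 and 3 alone (log2 change 0.40, edgeR adjusted p = 0.463). Except where the setting itself removes libraries or models, the cause was not tested. No member of the larger direction had under 144 deposited counts in a library. Since 1 fragment may be worth several counts, the depth in fragments is not known.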
